A study of Mus musculus with 6 samples.

Results

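The 7 genes described here are Flt3 ligand (Flt3l), stem cell factor (Kitl), colony stimulating factor 1 (Csf1) and interleukin 34 (Il34), with the receptors on which they act, Flt3, Kit and Csf1r. They were chosen by name, as the class III receptor tyrosine kinases other than the PDGF receptors and their ligands, out of 50600 genes in the deposited count table. All 7 were found there, and the rule uses no measured value. RNA of cardiac side population (SP) cells was sequenced in 6 libraries, 3 of wt hearts and 3 of hearts labelled flt3L-/-. SP cells are cells sorted for their efflux of a DNA-binding dye, here from cardiac suspensions freed of cardiomyocytes and erythrocytes. The wt mice were of strain C57BL/6NRj and the flt3L-/- mice of the strain given as C57BL/6Flt3Ltml/mx, on a C57BL/6N background, with no treatment named and 8 to 12 weeks old. Each library held the cells of 4 pooled mice, and 1 library of each group was made on each of 3 sorting dates (dates 1 to 3), the first 2 in 2016 and the third in 2017, so n counts pools and not mice. The loss of the ligand gene in these knockout mice was not limited to 1 cell type, and the deleted part of the gene is not given in the sources used here.

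Each receptor of this family sits in the plasma membrane as a single chain, is paired by its dimeric ligand, and then phosphorylates itself and docks adaptors that lead to PI3K and Akt, to Ras and Erk, and to STAT5. Flt3 is known from early lymphoid and myeloid progenitors and from dendritic cells, Kit from haematopoietic stem cells, mast cells and melanocytes, and Csf1r from monocytes and macrophages. Flt3l, Kitl and Csf1 are made with a membrane anchor and can be released by proteases, and Il34 shares the receptor of Csf1 without sequence likeness to it.

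The libraries held 24370913 to 31145519 counted reads. Levels are given as CPM, counts relative to the reads of the protein-coding genes with enough reads to be tested. The library sizes were TMM-scaled, and on them 3 reads were 0.109 to 0.127 CPM. The 10 endothelial markers summed to 7374 to 9638 CPM and the 8 fibroblast markers to 3722 to 18584 CPM, the highest sums of the cell marker lists. The genes that mark the sort were present in every library, Abcg2 with 147 to 274 CPM, Ly6a, which encodes Sca1, with 523 to 1791 CPM, and Cd34 with 926 to 1172 CPM. The pan-leukocyte gene Ptprc was at 96.4, 247 and 596 CPM in wt of dates 1, 2 and 3 and at 101, 237 and 79.2 CPM in flt3L-/-. Cardiomyocyte markers summed to 84.4 to 151 CPM and erythroid markers to 180 to 361 CPM, and mural cell markers to 276 to 914 CPM.

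The stretches upstream of 3 of these genes are shown to place them in the genome: that of Flt3l, the gene named in the genotype, that of Flt3, its receptor, and that of Csf1, a ligand at a high level. RefSeq promoter windows on GRCm38.p6 were matched by symbol for 5 of the 7 genes, with none matched for Il34 and Csf1r. The 250 bases before the RefSeq start are printed 5′ to 3′ on the strand of the gene, and capitals mark matches to GGGCGG (the letters bound by Sp1) on either strand. The windows are chr7:45136433-45136682, minus strand, for Flt3l, chr5:147400490-147400739, minus strand, for Flt3, and chr3:107760470-107760719, minus strand, for Csf1.
Flt3l: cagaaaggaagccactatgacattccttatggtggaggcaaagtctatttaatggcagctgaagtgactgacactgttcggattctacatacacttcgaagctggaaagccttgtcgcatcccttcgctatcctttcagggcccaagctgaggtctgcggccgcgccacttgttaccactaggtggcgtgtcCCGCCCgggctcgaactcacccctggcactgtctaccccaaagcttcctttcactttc
Flt3: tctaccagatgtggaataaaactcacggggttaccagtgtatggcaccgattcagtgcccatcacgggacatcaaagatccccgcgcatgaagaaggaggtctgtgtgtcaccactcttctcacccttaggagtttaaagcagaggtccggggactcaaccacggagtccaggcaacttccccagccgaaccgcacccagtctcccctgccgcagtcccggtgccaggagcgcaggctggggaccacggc
Csf1: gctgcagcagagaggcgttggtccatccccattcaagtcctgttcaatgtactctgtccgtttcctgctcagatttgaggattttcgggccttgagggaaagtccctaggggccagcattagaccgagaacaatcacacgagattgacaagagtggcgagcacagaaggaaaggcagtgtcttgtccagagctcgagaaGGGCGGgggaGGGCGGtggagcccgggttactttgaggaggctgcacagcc
One of these matches was in 32.7% of all 32851 windows of this length. It was found once before Flt3l, 53 to 58 bases upstream of the start, 2 times before Csf1, and not before Flt3. The other letters searched on both strands were TATAAA (12.4% of windows), GAGGAA (bound by PU.1, 23.3%), AGATAA (bound by GATA factors, 9.99%) and CACGTG (E-box, 6.02%), and none of them was in the 3 stretches. Before Kitl, TATAAA lay 20 to 25 bases upstream of the start, and before Kit, GAGGAA lay 218 to 223 bases upstream. GGGCGG also lay before Kitl, 36 to 41, 40 to 45 and 138 to 143 bases upstream, and before Kit, 93 to 98 bases upstream. The RefSeq starts of Kitl and Kit lie downstream of the GENCODE starts given further on. The TATAAA and GGGCGG matches before Kitl lie within Kitl as GENCODE annotates it. The G and C share of the 5 windows was 53.6% (Flt3l), 59.2% (Flt3), 69.2% (Kitl), 70.8% (Kit) and 56.4% (Csf1), each above the median of all windows, 52.4%. These matches are descriptions of letters, and no factor was measured at them.

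Per length, the ligands Kitl and Csf1 stood at the top of the 7 genes and Il34 and Flt3 at the bottom. The mean over the 6 libraries in CPM per kilobase of exon was 73.6 ± 17.9 for Kitl, 60.1 ± 10.7 for Csf1, 6.44 ± 4.77 for Csf1r, 3.20 ± 0.519 for Kit, 3.10 ± 0.530 for Flt3l, 0.408 ± 0.155 for Il34 and 0.242 ± 0.275 for Flt3 (SD, n = 6). Against the 13475 protein-coding genes with enough reads to be tested, the level per kilobase of Kitl was above that of 95.8% and that of Csf1 above 94.6%, while Flt3 was above 2.70% and Il34 above 6.34%. In each ligand and receptor pair the ligand led per kilobase, except that Il34 was below Csf1r in all 6 libraries.

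**Figure D1:**
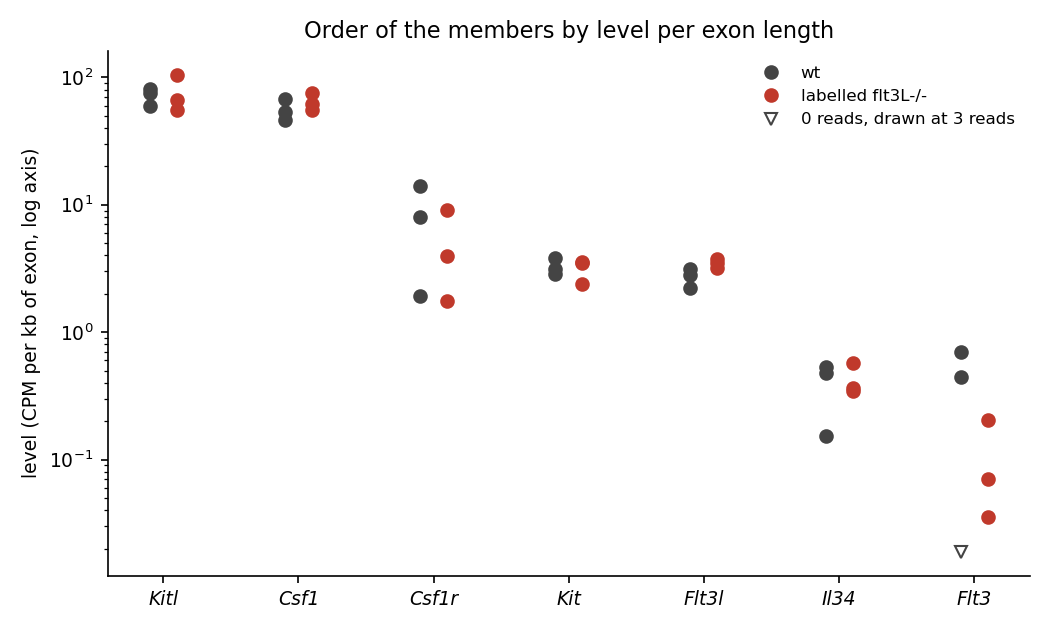
Level of each gene in CPM per kilobase of exon (log axis) in each library, wt in grey and labelled flt3L-/- in red, with genes in the order of their mean. Kitl and Csf1 lay above 46 CPM per kilobase in every library, the single triangle is a library with 0 Flt3 reads drawn at the level of 3 reads, and Il34 and Flt3 lay below 0.70 CPM per kilobase.

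Among neighbours in this order, Csf1 was above Csf1r and Flt3l above Il34 in 6 of 6 libraries, each with an exact two-sided sign-flip permutation p of 0.03125, the smallest that 6 libraries allow. Adjusted over the 6 neighbour pairs (Benjamini-Hochberg), both were 0.09375, so no step passed 0.05. With only 2 of 6 pairs at the smallest p, neither could pass after adjustment, whatever the size of its step. The order itself was taken from the means of these same libraries. Kitl was above Csf1 in 5 of 6 libraries (exact permutation p = 0.0625), Csf1r above Kit in 4 of 6 (exact permutation p = 0.281), Kit above Flt3l in 2 of 6 (exact permutation p = 0.875) and Il34 above Flt3 in 5 of 6 (exact permutation p = 0.156). None of these 4 steps held in all 6 libraries. Kitl was above Csf1 in 3 of 6 libraries when the length of the longest transcript was used in place of all exon bases.

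Flt3l (ENSMUSG00000110206) lies on chromosome 7 from 45129788 to 45136432 (GRCm38, minus strand). It is the gene named in the genotype, and its reads were not lower in the libraries labelled flt3L-/-. The 3 wt libraries held 223, 279 and 324 reads, or 8.67, 10.8 and 12.1 CPM, on dates 1, 2 and 3. The libraries labelled flt3L-/- held 373, 293 and 365 reads, or 13.6, 12.4 and 14.4 CPM. All 3 labelled flt3L-/- lay above all 3 wt libraries, the only one of the 7 genes whose groups did not overlap, where 6.45% of all genes tested had groups that did not overlap, 3.53% with flt3L-/- higher and 2.92% with flt3L-/- lower. The means were 10.5 ± 1.72 CPM in wt and 13.5 ± 1.01 CPM in flt3L-/- (SD, n = 3), and the log2 fold change was 0.37 ± 0.20 (SE), with a 95% interval of −0.15 to 0.88 and an adjusted p of 0.973 by edgeR's quasi-likelihood method. The difference was 0.64, 0.20 and 0.26 on the 3 dates. Because the position of the deletion is not known here, reads counted on the whole gene may lie outside it and do not test the genotype. The paper measured Flt3L protein of both groups by ELISA, in supernatants of cultured SP cells.

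A further gene model shares the coding exons of Flt3l. Gm45713 (ENSMUSG00000089989, protein coding, same strand, chromosome 7 from 45125922 to 45136231) has 13 exons, of which 6 lie in Flt3l and the other 7 in the neighbouring ribosomal protein gene Rpl13a. It shares 856 of its 1477 exon bases with Flt3l and the other 621 with Rpl13a. The shared bases hold 675 of the 696 coding bases of the transcript Flt3l-201, and they are 22.1% of all exon bases of Flt3l. How a read in an exon of 2 genes was counted is not stated in the sources used here. Gm45713 had 1184, 1415 and 2142 reads in wt and 1074, 1339 and 1515 in the libraries labelled flt3L-/-, and Rpl13a had 1308, 1518 and 2308 reads in wt and 1272, 1609 and 1818 in flt3L-/-.

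Per read of Rpl13a, the model that joins it to the Flt3l coding exons had fewer reads in the libraries labelled flt3L-/-. The ratio of Gm45713 to Rpl13a reads was 0.905, 0.932 and 0.928 in wt and 0.844, 0.832 and 0.833 in flt3L-/-, and the groups did not overlap. Over each group's summed reads it was 0.923 in wt, with an exact 95% Poisson interval of 0.897 to 0.950 for the Gm45713 reads, and 0.836 in flt3L-/-, with 0.810 to 0.862. The mean ratio was 0.922 ± 0.0145 in wt and 0.837 ± 0.00671 in flt3L-/- (SD, n = 3), with a two-sided exact permutation p of 0.1, the smallest that 3 against 3 libraries allow. This ratio was chosen after the values had been seen, and the intervals cover counting error only. Neither gene alone was called, with log2 fold changes of −0.20 ± 0.15 for Gm45713 and −0.06 ± 0.15 for Rpl13a (SE, adjusted p = 0.973 and 0.979 in edgeR's quasi-likelihood test). With the Gm45713 reads added to Flt3l, which brings in Rpl13a exons, the log2 fold change of Flt3l was −0.09.

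Flt3 (ENSMUSG00000042817, chromosome 5 from 147330741 to 147400489, minus strand), the receptor of Flt3l, was read so rarely that its level turned on few reads. The wt libraries held 0, 71 and 115 reads, or 0, 2.75 and 4.28 CPM. The libraries labelled flt3L-/- held 6, 30 and 11 reads, or 0.219, 1.27 and 0.435 CPM. The highest values were wt of the second and the third date, the lowest was wt of the first date, and the groups overlapped. On the first date the 0 reads of wt allow up to 3.69 reads (exact 95% Poisson interval) and the 6 reads of flt3L-/- span 2.20 to 13.1. These intervals overlap, and so few reads do not fix the size of a difference. The log2 difference was 1.93 on the first date, where it rests on 0 reads of wt and the prior count of 2. It was −1.07 on the second date and −3.09 on the third.

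Over all 6 libraries the log2 fold change of Flt3 was −1.16 ± 1.28 (SE), with a 95% interval of −4.51 to 2.18 and an adjusted p of 0.973 in edgeR's quasi-likelihood test. The group means were 2.35 ± 2.17 CPM in wt and 0.642 ± 0.557 CPM in flt3L-/- (SD, n = 3). Its SD over libraries on the log2 scale exceeded that of 99.6% of the genes tested. Without the third date the log2 fold change was −0.01, and without the first it was −2.15. In bulk libraries, fewer cells of a type and less RNA per cell cannot be told apart.

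Kitl (ENSMUSG00000019966, chromosome 10 from 100015630 to 100100416, plus strand), the ligand that keeps stem and mast cells alive, had the most reads of the 7 genes. Its level was 475, 442 and 355 CPM in wt and 621, 390 and 327 CPM in flt3L-/-. The first date was highest and the third lowest in both groups, and the groups overlapped. The means were 424 ± 62.1 CPM in wt and 446 ± 155 CPM in flt3L-/- (SD, n = 3), with a log2 fold change of 0.03 ± 0.17 (SE, adjusted p = 0.990, edgeR's quasi-likelihood test). The 95% interval of −0.42 to 0.48 bounds the difference in either direction, and the difference was 0.38, −0.18 and −0.12 on the 3 dates.

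Kit (ENSMUSG00000005672, chromosome 5 from 75574916 to 75656722, plus strand), its receptor, varied 1.60-fold between libraries. It was read at 28.0, 33.9 and 25.4 CPM in wt and at 31.03, 21.2 and 31.4 CPM in flt3L-/-. The highest and the lowest value were both of the second date, one in each group. The means were 29.1 ± 4.36 and 27.9 ± 5.77 CPM (SD, n = 3), the log2 fold change was −0.07 ± 0.24 (SE, adjusted p = 0.985, edgeR's quasi-likelihood test), and without the second date it was 0.20. Per kilobase, Kitl exceeded Kit 15.7-fold to 30.1-fold, with a median over libraries of 23.2-fold.

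Csf1 (ENSMUSG00000014599, chromosome 3 from 107741048 to 107760469, minus strand), the main growth factor of macrophages, was read at 358, 284 and 244 CPM in wt and at 401, 324 and 294 CPM in flt3L-/-. On each date the library labelled flt3L-/- was the higher one, by 0.17, 0.19 and 0.27 on the log2 scale, while the groups overlapped because the dates differed more. Csf1 and Flt3l were the 2 of 7 genes that were higher in flt3L-/- on all 3 dates, as were 14.2% of all genes tested. The means of Csf1 were 295 ± 57.9 CPM in wt and 340 ± 55.3 CPM in flt3L-/- (SD, n = 3), with a log2 fold change of 0.21 ± 0.13 (SE) and an adjusted p of 0.973 in edgeR's quasi-likelihood test. The 95% interval was −0.12 to 0.54.

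Il34 (ENSMUSG00000031750, chromosome 8 from 110741829 to 110805924, minus strand), the other ligand of Csf1r, was near the limit of what these libraries can show. It had 24, 27 and 8 reads in wt and 31, 16 and 18 reads in flt3L-/-, or 0.933, 1.05 and 0.298 CPM against 1.13, 0.679 and 0.712 CPM. It exceeded 1 CPM in 2 libraries, the fewest that the filter on low counts lets pass, and Flt3 did so in 3. The groups overlapped, and the log2 fold change was 0.26 ± 0.59 (SE, adjusted p = 0.977, edgeR's quasi-likelihood test), or −0.16 without the third date. Per kilobase, Il34 made up 0.329% to 0.985% of the sum of both Csf1r ligands. Il34 shares 22 and 75 exon bases with the antisense genes Gm15894 and Gm15895, whose reads cannot be told from its own in unstranded libraries and numbered 0 to 2 and 0 to 5.

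Csf1r (ENSMUSG00000024621, chromosome 18 from 61100598 to 61132149, plus strand), which marks monocytes and macrophages, varied 7.93-fold between libraries. Its level was 11.1, 46.5 and 80.3 CPM in wt and 22.7, 52.3 and 10.1 CPM in flt3L-/-. The highest value was wt of the third date and the lowest flt3L-/- of that same date, and the groups overlapped. Per kilobase, Csf1 exceeded Csf1r 3.31-fold to 35.1-fold. The means were 46.0 ± 34.6 and 28.4 ± 21.7 CPM (SD, n = 3), and the log2 fold change was −0.48 ± 0.88 (SE, adjusted p = 0.977, edgeR's quasi-likelihood test), with a 95% interval of −2.77 to 1.80. The difference was 1.03 and 0.17 on the first 2 dates and −2.98 on the third, and without the third date the log2 fold change was 0.59. Of its exon bases, 15.1% are shared with Hmgxb3 on the opposite strand, which had 900 to 1217 reads and was at 38.2 to 44.3 CPM.

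**Figure D2:**
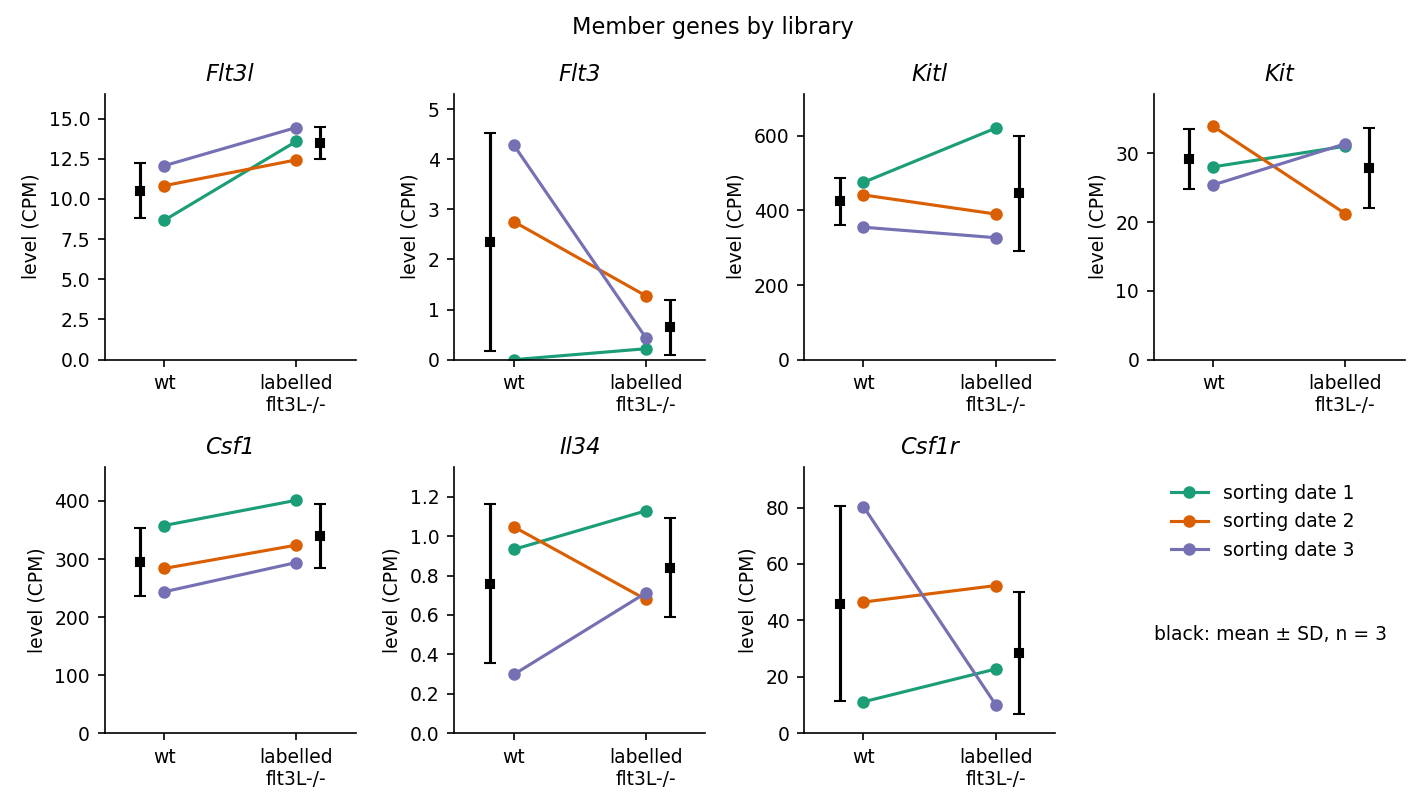
Level in CPM of the 7 genes in each library (points), with lines joining both libraries of a sorting date and black squares for the mean ± SD (n = 3). Flt3l is higher in all 3 libraries labelled flt3L-/-, and Flt3 and Csf1r take their highest value in wt of the third date, at 4.28 and 80.3 CPM.

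None of the 7 genes was called between the groups at an adjusted p under 0.05 in edgeR's quasi-likelihood test, where 0% of the 13475 genes tested were called and the smallest adjusted p was 0.973. The paper reported other genes past this threshold with the same kind of test, and the fit here did not call them. None of the 7 genes was among those, and the cause of the disagreement was not tested. At an unadjusted p under 0.05 it was 0 of 7, against 3.59% of all genes tested (1.11% higher and 2.49% lower in flt3L-/-), and DESeq2 also called 0 of 7. The intervals differed in width by gene. Those of Kitl and Csf1 stayed within 0.54 of 0 on the log2 scale, whereas those of Flt3, Csf1r and Il34 reached 1.80 or more, so that a difference of a few fold in these 3 genes was not detectable here. Flt3 and Il34 had few reads, whereas Csf1r had 256 to 2156 reads and a wide spread between libraries, with an SD of 1.23 on the log2 scale.

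**Figure D3:**
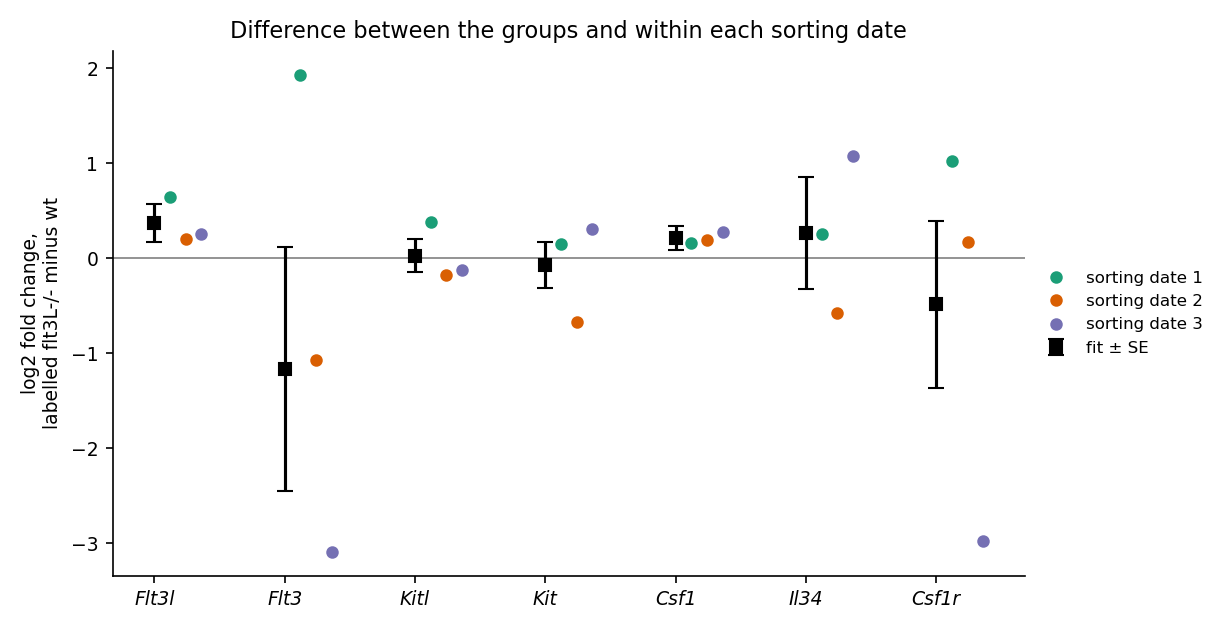
Log2 fold change of each gene, labelled flt3L-/- minus wt, from the fit over all 6 libraries (black squares ± SE) and within each sorting date (coloured points). Flt3l and Csf1 lie above 0 on all 3 dates, and Flt3 and Csf1r reach −3.09 and −2.98 on the third date with the opposite sign on the first, where the wt value of Flt3 rests on 0 reads.

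The dates stood in the same order for Kitl and Csf1 in both groups, without passing the test. Averaged over the 2 libraries of a date, Kitl was 548, 416 and 341 CPM and Csf1 was 379, 304 and 269 CPM on dates 1, 2 and 3. Their unadjusted p for the date was 0.0611 and 0.0568, and the adjusted p was 0.602 for both (edgeR's quasi-likelihood test). In this fit none of the 7 genes passed for the date at an unadjusted p under 0.05, against 8.28% of all genes tested. At an adjusted p it was 0 of 7 against 0%. The unadjusted count changed under some of the alternatives given at the end. Flt3 was at 0.109, 2.01 and 2.36 CPM and Csf1r at 16.9, 49.4 and 45.2 CPM, both lowest on the first date. Kit was at 29.5, 27.6 and 28.4 CPM and Flt3l at 11.1, 11.6 and 13.3 CPM.

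Likeness of profile was measured as the root mean square difference of log2 CPM over the 6 libraries, after removal of each gene's mean. Among the 7 genes, Kitl and Csf1 were nearest to each other at 0.182, and Flt3 and Csf1r were each farther than 1.1 from every other one. Over all genes tested, the nearest to Flt3 were Cdh1 at 0.368, Krt8 at 0.406 and Msln at 0.657, which encode E-cadherin, a keratin and mesothelin. Cdh1 was at 0, 2.48 and 4.10 CPM in wt and 0.473, 1.87 and 0.515 CPM in flt3L-/-, so it too had no read in wt of the first date. Krt8 was at 0, 1.32 and 2.53 CPM in wt and 0.219, 1.10 and 0.435 CPM in flt3L-/-.

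The genes nearest to Csf1r were Ugt1a9 at 0.0679, Ugt1a6b at 0.104 and Ugt1a8 at 0.111, which encode UDP-glucuronosyltransferases. Ugt1a9 was at 1.83, 7.99 and 14.8 CPM in wt and 4.22, 9.59 and 1.62 CPM in flt3L-/-. These 3 genes are made from 1 locus with common exons, so the reads cannot be split between them with certainty. The nearest to Flt3l were Dph7, Pinx1 and Slc9a3r2 (0.0501 to 0.0547), and to Csf1 they were Rev1, Ccdc6 and Syde1 (0.0501 to 0.0696). Kitl was nearest to Scaf4, Elk4 and Lmo1 (0.0700 to 0.0888), Kit to Nsun3, Usp38 and Rb1 (0.0675 to 0.0708), and Il34 to BC005561, Rnf19b and Aggf1 (0.104 to 0.113). With 6 libraries these are likenesses of shape over few points, and genes of low spread find near neighbours easily.

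Markers of the cells that carry these receptors were read in the same libraries. The 13 macrophage markers summed to 99.4, 677 and 1779 CPM in wt and 403, 1054 and 207 CPM in flt3L-/-, with the ranges of the groups overlapping. Csf1r stood highest where this sum was highest, in wt of the third date, and was lowest in wt of the first date and flt3L-/- of the third, where it was lowest too. The largest part of the sum in 4 of 6 libraries was Lyz2, the lysozyme of myeloid cells, and in the other two it was Mertk. Lyz2 was at 17.1, 507 and 1527 CPM in wt and 246, 844 and 67.4 CPM in flt3L-/-. The sum therefore does not separate macrophages from other myeloid cells. Adgre1, which encodes F4/80, was at 0.467, 4.50 and 13.4 CPM in wt and 2.003, 6.83 and 1.504 CPM in flt3L-/-. The complement gene C1qb, typical of resident macrophages, was at 0.544, 5.43 and 3.43 CPM in wt and 0.874, 6.49 and 3.64 CPM in flt3L-/-, without the drop on the third date. C1qc, Cd163 and Mertk were also higher in flt3L-/- on the third date, Mertk at 111 against 77.8 CPM. The other markers were lower there. C1qa, C1qb, C1qc, Mrc1, Cd163 and Cx3cr1 were highest in a library of the second date. Mrc1 was at 0 in wt of the first date, and the other 12 markers had reads in every library.

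The 6 neutrophil markers summed to 1.90, 110 and 128 CPM in wt and 165, 234 and 7.68 CPM in flt3L-/-, with Ly6g and Retnlg at 0 in at least 1 library. A set of 7 T and NK cell genes, chosen after the values had been seen, summed to 42.9, 88.9 and 186 CPM in wt and 30.6, 98.3 and 28.4 CPM in flt3L-/-, and all 7 had reads in every library. Of these, the 3 NK cell genes summed to 38.1, 61.2 and 135 CPM in wt and 16.7, 49.4 and 13.7 CPM in flt3L-/-, lower on each date. Of all single genes tested, 11.5% were lower in flt3L-/- on all 3 dates. The T cell genes Cd3e, Cd3g, Cd8a and Cd4 were higher in flt3L-/- on the first and the second date and lower on the third. The neutrophil sum, the T and NK cell sum and Ptprc, like Csf1r, Flt3 and the adaptor gene Dok2, were lower in flt3L-/- than in wt on the third date. The part of these leukocytes in the values of Csf1r and Flt3 was not tested.

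For Flt3, the 10 dendritic cell markers summed to 278, 400 and 438 CPM in wt and 365, 487 and 510 CPM in flt3L-/-. In 5 of 6 libraries the largest part was Zbtb46, at 174 to 300 CPM over all libraries, a gene that endothelium also expresses, and in flt3L-/- of the second date it was Cd74. The list does not separate dendritic cells from endothelium. Itgax, which encodes CD11c, was at 3.81, 12.4 and 16.8 CPM in wt and 1.64, 5.60 and 0.317 CPM in flt3L-/-. Cd209a was at 0, 2.10 and 3.05 CPM in wt and 0.619, 0.509 and 0 CPM in flt3L-/-. Both were highest in wt of the second and the third date, the libraries where Flt3 was highest. None of the other 8 markers was so ordered. Xcr1, at 0.186 to 1.13 CPM, and Clec9a, at 6.24 to 16.1 CPM, were highest in flt3L-/- of the first date, and Ccr7 was highest in flt3L-/- of the second, at 19.4 CPM. The antigen presentation genes H2-Ab1, H2-Aa and Cd74 were higher in flt3L-/- than in wt on the second and the third date, H2-Ab1 at 65.7 and 71.1 CPM against 36.4 and 37.5 CPM. The 6 haematopoietic progenitor markers summed to 19.3, 31.9 and 27.7 CPM in wt and 16.1, 37.6 and 8.55 CPM in flt3L-/-, with Gfi1b at 0 in at least 1 library. The part of these cells in the values of Flt3 was not tested.

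**Figure D4:**
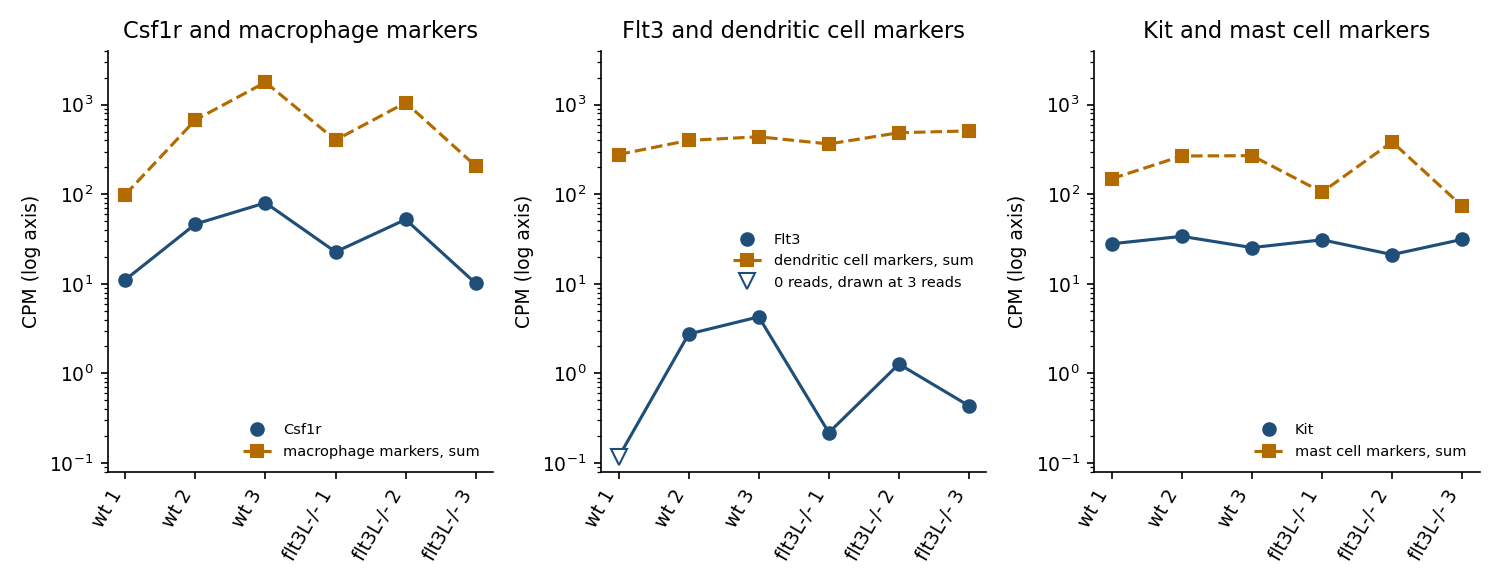
Level in CPM (log axis) of Csf1r, Flt3 and Kit (circles) and the summed CPM of macrophage, dendritic cell and mast cell markers (squares) in each of the 6 libraries, wt first. Csf1r and the macrophage marker sum are both highest in wt of the third date, at 80.3 and 1779 CPM. Lyz2 alone made up 1527 CPM of that sum. The triangle marks 0 Flt3 reads drawn at 3 reads. Kit keeps between 21.2 and 33.9 CPM while the mast cell marker sum ranges from 73.5 to 384 CPM.

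For Kit, the 8 mast cell markers summed to 149, 268 and 270 CPM in wt and 106, 384 and 73.5 CPM in flt3L-/-, and all 8 had reads in every library. Hdc, which encodes histidine decarboxylase, was over 50% of this sum in 5 of 6 libraries. Without Hdc the other 7 summed to 93.4, 64.5 and 64.3 CPM in wt and 9.36, 97.1 and 17.2 CPM in flt3L-/-, so that wt of the first date stood near the top. The carboxypeptidase gene Cpa3 was at 25.04, 17.8 and 14.7 CPM in wt and 2.15, 28.3 and 3.17 CPM in flt3L-/-, a wider range than that of Kit. Kit was at its lowest, 21.2 CPM, in flt3L-/- of the second date, where Cpa3 was at its highest. The 5 melanocyte markers summed to 3.73 to 7.41 CPM, most of it Pmel, and Mlana, Dct, Tyr and Tyrp1 were each at 0 in at least 1 library.

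None of the genes that act with these receptors was called between the groups. Of 91 such genes on 5 lists, 88 were tested, and 4 had an unadjusted p under 0.05, or 4.55% against 3.59% of all genes tested. The median log2 fold change over the 88 genes was −0.01, and that over all genes tested was −0.00027. Gata1, Hoxa9 and Ptprz1 did not pass the filter on low counts. Without the second date 10 genes (11.5%) had an unadjusted p under 0.05, against 7.47% of all genes then tested. It was 2 (2.27% against 2.57%) without the first and 3 (3.41% against 1.87%) without the third.

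Of the 19 adaptors and lipid kinases, which link the phosphorylated receptors to PI3K and Ras, 0 passed at an unadjusted p under 0.05 and the median log2 fold change was −0.10. The smallest p were those of Gab1 at −0.32 ± 0.15, Pik3r1, the regulatory subunit of PI3K, at −0.28 ± 0.13, and Nck1 at 0.30 ± 0.19 (log2 fold change ± SE). Pik3r1 was read at 50.1, 55.6 and 67.0 CPM in wt and at 42.9, 48.5 and 49.8 CPM in flt3L-/-. It was lower in flt3L-/- on all 3 dates, as were 11.5% of all genes tested. Crk and Nck1 had the highest levels per kilobase of this list, 67.3 and 27.9 CPM per kilobase.

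The 26 kinases, GTPases and STATs downstream had 0 genes at an unadjusted p under 0.05 and a median log2 fold change of 0.06. Fes, a kinase of myeloid and endothelial cells, was at 0.38 ± 0.17, Braf at −0.29 ± 0.14 and Map2k2, which encodes Mek2, at 0.23 ± 0.12 (log2 fold change ± SE). Each of these 3, named for a small p, had 1 sign on all 3 dates, as did 25.7% of all genes tested. Mapk3, which encodes Erk1, and Stat3 had the highest levels per kilobase, 77.2 and 70.2 CPM per kilobase, and log2 fold changes of 0.09 and 0.04.

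Of the 18 negative regulators, 1 had an unadjusted p under 0.05 (5.56%, against 3.59% of all genes tested), and the median log2 fold change was −0.06. Dok2, a docking protein of leukocytes that damps Ras, was at 6.45, 9.58 and 24.1 CPM in wt and 2.73, 6.87 and 2.53 CPM in flt3L-/-. Its log2 fold change was −1.62 ± 0.61 (SE), with an unadjusted p of 0.0465 and an adjusted p of 0.973 in edgeR's quasi-likelihood test. On the third date alone the difference was −3.21. The next were Sla at −1.13 ± 0.75 and Inpp5d, the lipid phosphatase Ship1, at −0.34 ± 0.26. Socs3 and Socs1, feedback inhibitors of cytokine receptors, were the most abundant per kilobase, 217 and 44.9 CPM per kilobase, with log2 fold changes of 0.06 and 0.03.

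Among 17 transcription factors that act on the receptor genes, 1 had an unadjusted p under 0.05 (5.88%, against 3.59% of all genes tested). The median log2 fold change was −0.10. Runx1, needed for blood stem cells to form, was at 39.0, 17.3 and 20.2 CPM in wt and 21.1, 15.7 and 8.67 CPM in flt3L-/-. Its log2 fold change was −0.75 ± 0.25 (SE, unadjusted p = 0.0334, adjusted p = 0.973, edgeR's quasi-likelihood test). Runx1 was lower in flt3L-/- on all 3 dates, as were 11.5% of all genes tested. Mitf, a regulator of Kit in mast cells and melanocytes, was at −0.999 ± 0.45 and Gata2 at 0.28 ± 0.16 (log2 fold change ± SE). Egr1 and Id2 were the most abundant per kilobase, 1367 and 126 CPM per kilobase, with log2 fold changes of −0.02 and −0.10.

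Of the 8 tested genes for the release or binding of the ligands, 2 had an unadjusted p under 0.05, 1 higher and 1 lower in flt3L-/-. That is 25% of a short list, against 4.55% over all 5 lists and 3.59% of all genes tested. The median log2 fold change of the list was 0.17. Rhbdf2, which encodes iRhom2, the partner that brings the protease Adam17 to the cell surface, was at 56.2, 67.7 and 97.0 CPM in wt and 111, 82.3 and 147 CPM in flt3L-/-. It was higher in flt3L-/- on all 3 dates, as were 14.2% of all genes tested. The log2 fold change of Rhbdf2 was 0.62 ± 0.18 (SE, unadjusted p = 0.0181, adjusted p = 0.973, edgeR's quasi-likelihood test). Adam17 itself was at 0.16 ± 0.16, Adam10 at 0.01 ± 0.20 and Timp3, an inhibitor of both, at 0.19 ± 0.23 (log2 fold change ± SE). The proteoglycan gene Sdc1 was at −0.51 ± 0.19 (SE, unadjusted p = 0.0455, adjusted p = 0.973, edgeR's quasi-likelihood test).

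**Figure D5:**
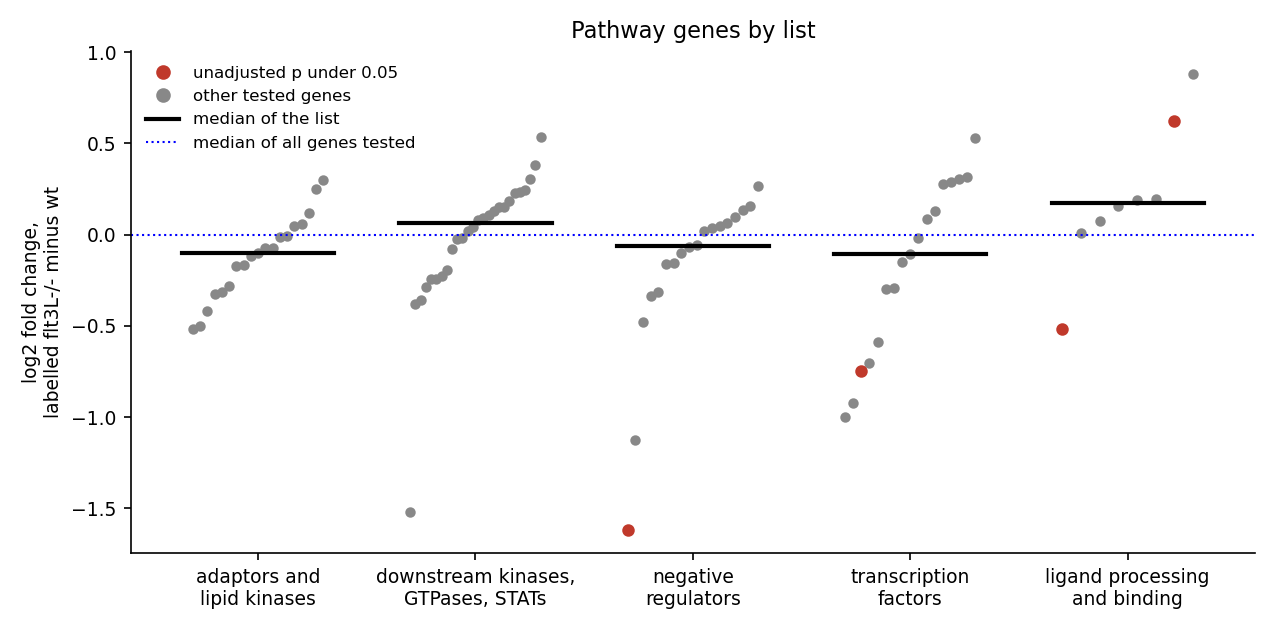
Log2 fold change, labelled flt3L-/- minus wt, of each tested gene on the 5 pathway lists, ordered by value within a list, with a black bar for the median of the list and a dotted line for the median of all genes tested. The 4 red points are Dok2, Runx1, Sdc1 and Rhbdf2, whose unadjusted p was under 0.05, and no list median was farther than 0.17 from 0.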

How the data were processed

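The deposited values were raw counts of reads per gene, without normalization. The authors mapped single reads of 81 bases to mm10 with STAR 2.5.2a, keeping reads with up to 10 hits, and counted reads that start in an exon with QuasR 1.18.0 on Ensembl release 88. The kit keeps no strand. Positions, biotypes and exon lengths were taken from GENCODE M21 on GRCm38, which held 50376 of the genes, and promoter windows from RefSeq.

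Groups came from the strain labels, and the pairing from the sorting dates and the methods of the study. After removal of group means, libraries of one date correlated across genes at 0.180, 0.104 and 0.116, against −0.354 to 0.247 for other pairs. Protein-coding genes that exceeded 1 CPM in 2 or more libraries were tested in edgeR 4.0.16 (R 4.3.3) by the quasi-likelihood test with legacy = TRUE, TMM factors and the sorting date as a covariate, and Benjamini-Hochberg adjusted p under 0.05 was called. Log2 differences within a date used a prior count of 2. The order of levels was tested per kilobase with 1 count added. Scripts were tested on simulated data.

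The 7 genes and the lists (5 of pathway genes, 13 of cell markers) were chosen with earlier results of these data known. Of 1 marker list only the T and NK cell genes are reported here. Named besides the 7 genes were the 3 nearest profiles to each, per pathway list the 3 smallest p and the 2 highest levels per kilobase, genes that share exons with the 7, and markers, while Rpl13a was added after the values had been seen. The alternatives were other size factors, DESeq2 1.42.0, no filter on low counts, all biotypes, no sorting date, legacy = FALSE, added reads of overlapping genes, another length, and each date left out.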

Additional observations from a re-analysis of the deposited data

How the results depend on the processing

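In every alternative 0 of the 7 genes and 0 of the pathway genes were called. Of 69 log2 fold changes of the 7 genes under alternatives, 63 kept their direction and call and 6 turned in direction, with none past the threshold. Flt3l was −0.094 with the reads of Gm45713 added. Kitl was −0.010 without TMM factors. The other 4 came from leaving out a date, with Kitl at −0.15 to 0.11, Kit at −0.26 to 0.20, Il34 at −0.16, and Csf1r at −1.39 to 0.59. Flt3 could not be tested without the second date, nor Il34 without the first or second or with all biotypes, since they failed the filter. Over all genes, DESeq2 called 21 genes between the groups (6 higher and 15 lower in flt3L-/-) and 403 between sorting dates, where edgeR called 0 of each. The cause was not tested. Neighbours in the order of levels that kept 1 order in every library numbered 2, and 2 to 4 when a date was left out. Without the sorting date as a replicate block, 0 genes were called, and Flt3 was at −1.87 against −1.16 with the pairing. It changed no call. At an unadjusted p under 0.05 between the groups, edgeR gave 484 genes, 262 without the block, and 341, 980 and 249 without dates 1, 2 and 3. For the sorting date at this threshold, the main fit gave 0 of the 7 genes. DESeq2 gave 2 of 7, against 1587 of all 13475 genes. With all biotypes it was 2 of 6 tested, against 1440 of 16909. With no filter on low counts it was 1 of 7, against 1416 of 19612. Depth limits Flt3 and Il34 most, with 0 to 115 and 8 to 31 reads.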
